A study of Mus musculus with 6 samples.

Results

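Serum microRNAs (miRNAs) were compared at day 14 after a nerve allograft between mice given FK506 and mice given no immunosuppressant, with 1 small-RNA library for each. The comparison covers every mature miRNA entry with at least 50 reads in 1 of these 2 libraries, which 130 of the 1281 entries in the count table met. Of those 1281 entries, 507 had a read in any of the 6 libraries of the series. Nearly all reads fell on miR-486-5p and miR-3107-5p, a near-identical pair that was set apart, and the other 128 entries were compared as shares of the reads outside that pair. In the series, sciatic nerve segments from Balb/c donors were grafted into male C57BL/6 recipients aged 10 to 12 weeks, and serum was taken at days 3, 7 and 14. The FK506 group received FK506 (tacrolimus) under the skin at 1 mg/kg per day from surgery on. The untreated group received the same allograft and no FK506, so both groups carried a graft. The recipient strain is C57BL/6 in the sample labels, while the protocol text names Balb/c recipients in 1 place. The protocol states 3 animals for each group at each day; the labels do not tell if a library is 1 animal or a pool. The blood is described as drawn into tubes with anticoagulant, although the fluid is labelled serum.

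Mature miRNAs are short RNAs that guide Argonaute proteins to messenger RNAs, mainly by pairing through the seed at their 5′ end. In blood they travel with Argonaute, lipoproteins and vesicles, and most of them come from blood cells and platelets, with smaller amounts from vessel walls, liver, gut, muscle and other organs. FK506 binds FKBP12 and blocks calcineurin, so that NFAT stays out of the nucleus and T cells make less interleukin-2, and it is used to protect nerve and organ allografts from rejection. Serum shares are relative: a higher share of 1 miRNA lowers the others, and fewer cells of a type cannot be told apart from less RNA per cell.

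The mature sequences of 109 of the 128 entries were found in RefSeq (GRCm38.p6), 107 by name and 2 by gene symbol. Most of those printed are relatives with nearly the same letters that held different levels in the 2 libraries, because these pairs carry the comparison and show how few bases separate the entries. Capitals mark the seed, bases 2 to 8 from the 5′ end. The miR-10 pair, of which miR-10b-5p was the most abundant entry outside miR-486-5p and miR-3107-5p in the FK506 library, shares the seed and differs by U12A (miR-10a-5p base first, counted from its 5′ end):
miR-10a-5p: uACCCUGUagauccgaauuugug
miR-10b-5p: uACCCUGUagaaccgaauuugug

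The let-7 family held 4 of the 16 lower shares. Against let-7a-5p, let-7f-5p carries G12A, let-7d-5p U1A and U16C, let-7i-5p G12U, A17G, U18C and A19U, let-7c-5p A19G, let-7b-5p A17G and A19G, and let-7g-5p G12U and U18C. The first 4 of these sequences were at least 2-fold lower in the FK506 library and the last 3 were not:
let-7a-5p: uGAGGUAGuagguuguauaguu
let-7f-5p: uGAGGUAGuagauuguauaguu
let-7d-5p: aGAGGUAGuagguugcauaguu
let-7i-5p: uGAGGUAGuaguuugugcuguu
let-7c-5p: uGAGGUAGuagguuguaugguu
let-7b-5p: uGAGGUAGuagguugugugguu
let-7g-5p: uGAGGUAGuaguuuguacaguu

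In 2 further same-seed pairs the ratio of the relatives also differed between the libraries, and miR-574-3p and miR-199a-3p had some of the highest ratios of FK506 to untreated serum. From miR-192-5p to miR-215-5p the changes are C1A, A12U and C20A, and from miR-25-3p to miR-92a-3p they are C1U, U14C and U18C, with miR-92a-3p 1 base shorter:
miR-192-5p: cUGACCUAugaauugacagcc
miR-215-5p: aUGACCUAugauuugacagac
miR-25-3p: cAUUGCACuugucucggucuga
miR-92a-3p: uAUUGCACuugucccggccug
miR-574-3p: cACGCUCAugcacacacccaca
miR-199a-3p: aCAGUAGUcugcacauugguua

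The libraries differed in how much lay outside miR-486-5p and miR-3107-5p. The FK506 day 14 library held 5806228 miRNA reads, against 5357177 in the untreated one. Reads outside the pair numbered 359061 in the FK506 library and 158423 in the untreated library. That was 6.18% of reads in FK506 serum (95% interval 6.16 to 6.20) and 2.96% in untreated serum (2.94 to 2.97), and the same share was 2.03% to 6.09% in the 4 libraries of days 3 and 7. The pair, whose first member is a red-cell miRNA, had 15.2 reads per other read in FK506 serum and 32.8 in untreated serum. A read was seen for 409 entries in the FK506 library and for 284 in the untreated library. The floor of 50 reads therefore let in 35 of the 128 entries through the FK506 library alone and 3 through the untreated library alone, while 90 met it in both. Intervals here and below are exact or normal-theory 95% intervals for counting error, and they say nothing about variation between mice, since no group has a replicate. An entry at 0 reads may hold up to 3 reads at this depth.

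FK506 serum held higher shares of the miR-10 pair, of lymphocyte-enriched miR-150-5p, of white-cell miR-142 and miR-223-3p and of vessel and connective-tissue miRNAs. It held lower shares of 4 let-7 members, miR-423-5p, miR-320-3p and the liver miRNA miR-122-5p. These entries do not stand for their cell types. The other measured lymphocyte and liver entries stayed within 2-fold, and the lymphocyte list had a median log2 ratio of -0.28. The leukocyte and myeloid list summed to 5.49% in FK506 serum and 6.43% in untreated serum. Of the 128 entries, 36 had a share at least 2-fold higher in FK506 than in untreated serum (28.1%) and 16 a share at least 2-fold lower (12.5%). The median log2 ratio of shares, FK506 over untreated, was 0.27. The 36 higher entries together made up 31.5% of reads outside the pair in FK506 serum and 9.33% in untreated serum. The 16 lower entries made up 5.70% in FK506 serum and 20.3% in untreated serum, and the 76 between them 62.1% in FK506 serum and 69.8% in untreated serum. Of the 90 entries that met the floor in both libraries, 15 were higher and 13 lower, while the 35 that met it in FK506 serum alone gave 21 higher and 0 lower. Those 21 passed through the library in which they were high.

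The scale moved these counts. With trimmed mean of M-values (TMM) scaling over all 6 libraries, which takes the middle of the entries as unmoved, 27 of the 128 entries were at least 2-fold higher (21.1%) and 18 lower (14.1%). TMM shifted the median log2 ratio by -0.26, to 0.01. Per library total, with the pair counted, 84 were higher (65.6%) and 3 lower (2.34%), since the median shifted by 1.06. Both the shares and TMM called the same direction for 27 higher and 16 lower entries. The 9 entries higher by shares but not by TMM were miR-127-3p, miR-141-3p, miR-29a-3p, miR-133a-3p, miR-451a, miR-99b-5p, miR-149-5p, miR-27b-3p and miR-24-3p. All 9 were also higher per library total. The 2 lower by TMM alone were miR-92a-3p and miR-98-5p.

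**Figure D1:**
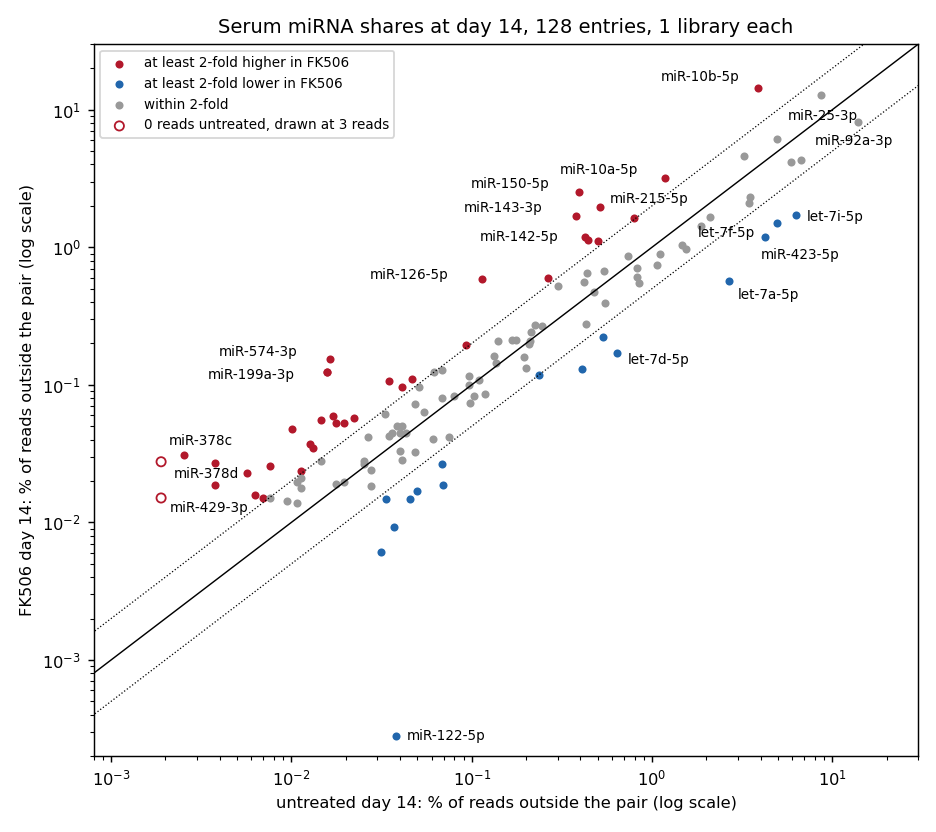
Share of reads outside miR-486-5p and miR-3107-5p in FK506 day 14 serum (vertical, log scale) against untreated day 14 serum (horizontal, log scale) for 128 miRNA entries, 1 library each. The solid line marks equal shares and the dotted lines 2-fold; 36 entries lie above the upper dotted line, miR-10b-5p at 14.4% the most abundant, and 16 lie below the lower one.

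The most abundant miRNA outside the pair was not the same in the 2 libraries. In FK506 serum it was miR-10b-5p, which lies in an intron of Hoxd3 and Hoxd4 on the plus strand at chr2:74726074-74726096 (GRCm38). It had 51721 reads, 14.4% of those outside the pair (14.3 to 14.5), in FK506 serum and 6153 reads, 3.88% (3.79 to 3.98), in untreated serum. The share was 3.71-fold higher in FK506 serum (95% interval 3.61 to 3.81). Its relative miR-10a-5p, at chr11:96317186-96317208 within no annotated host gene, had 11486 reads in FK506 serum and 1866 in untreated serum, 2.72-fold more by share (2.59 to 2.85). Both miR-10 members thus stood higher by more than counting error, miR-10b-5p the more so.

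In untreated serum the most abundant was miR-92a-3p, a miRNA of the miR-17-92 clusters that is plentiful in red cells. It made up 8.19% of reads outside the pair in FK506 serum (29406 reads) and 13.9% in untreated serum (22068 reads). Its same-seed relative miR-25-3p, encoded in Mcm7, stood at 12.8% in FK506 serum (46077 reads) and 8.61% in untreated serum (13644 reads). Neither passed 2-fold by share. Their log2 ratios were -0.77 for miR-92a-3p and 0.58 for miR-25-3p by shares, -1.03 and 0.31 by TMM, and 0.30 and 1.64 per library total, where both were above 0.

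Of the 10 most abundant entries over both libraries, 7 stayed within 2-fold by share, miR-10b-5p was higher, and let-7f-5p and let-7i-5p, described with their family, were lower. The widely expressed miR-30a-5p held 6.08% in FK506 serum and 4.92% in untreated serum. For the red-cell miRNA miR-16-5p the shares were 4.64% in FK506 serum and 3.23% in untreated serum. Another widely expressed miRNA, miR-22-3p, held 4.33% in FK506 serum and 6.73% in untreated serum. The blood-cell miRNA miR-191-5p held 4.13% in FK506 serum and 5.89% in untreated serum. The 10 most abundant entries took 62.7% of reads outside the pair in FK506 serum and 62.9% in untreated serum, so the libraries were alike in how concentrated they were.

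The lymphocyte miRNA miR-150-5p, abundant in mature B and T cells, had 9054 reads in FK506 serum and 622 in untreated serum. Its share was 2.52% in FK506 serum and 0.393% in untreated serum, 6.42-fold higher in FK506 (5.92 to 6.98). The same miRNA stood at 5.29% and 3.81% in FK506 serum of days 3 and 7, and at 0.592% and 0.143% in untreated serum of those days. All 3 FK506 libraries were thus above all 3 untreated ones, as for 23 of the 128 entries (18.0%), although the FK506 share was lowest at day 14. No other measured lymphocyte miRNA passed 2-fold: of the 4 measured, 1 was higher and 0 lower, against 28.1% higher and 12.5% lower over all 128 entries. The median log2 ratio of the 4 was -0.28, against 0.27 over all 128 entries. Per library total that median was 0.77. Among the rest, miR-181a-5p, known for setting T-cell receptor sensitivity in the thymus, had 7530 reads in FK506 serum and 5458 in untreated serum, a log2 ratio of -0.72. The activation-induced miR-155-5p had 3 reads in FK506 serum and 4 in untreated serum.

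Of the 6 measured miRNAs of leukocytes and myeloid cells, 4 were higher and 0 lower, against 28.1% higher over all entries, with a median log2 ratio of 1.25 against 0.27. By TMM 3 were higher. Both arms of miR-142, a miRNA made across blood-cell lineages, were among them. miR-142-5p had 4240 reads in FK506 serum and 670 in untreated serum (2.79-fold, 2.57 to 3.03). Its other arm, miR-142-3p, had 97 reads in FK506 serum and 6 in untreated serum (7.13-fold, 3.16 to 19.9). The neutrophil and platelet miRNA miR-223-3p had 67 reads in FK506 serum and 6 in untreated serum (4.93-fold, 2.15 to 13.9). Of these 6, miR-142-3p, miR-223-3p and miR-24-3p met the 50-read floor in FK506 serum alone, the library with more reads outside the pair. All 3 are among the 4 higher, and 21 of all 35 entries that met the floor in this way were higher. Summed over all 7 listed, the group held 5.49% in FK506 serum and 6.43% in untreated serum and miR-191-5p alone 4.13% in FK506 serum and 5.89% in untreated serum. The NF-κB-induced feedback miRNA miR-146a-5p had 384 reads in FK506 serum and 55 in untreated serum (3.08-fold, 2.32 to 4.16). The other measured miRNAs of that feedback group stayed within 2-fold: miR-146b-5p had a log2 ratio of 0.91 and miR-21a-5p of 0.24.

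Several vascular and mesenchymal miRNAs had higher shares in FK506 serum. The list holds miR-199a-3p and miR-199b-3p, which have the same sequence and counts and are counted once here. Of the 15 entries so listed, 7 were measured, 5 of them higher and 0 lower, against 28.1% higher over all entries, with a median log2 ratio of 2.16 against 0.27. Of these 7, miR-126-3p, the miR-199 sequence and miR-574-3p met the floor in FK506 serum alone. All 3 are among the 5 higher, and 21 of all 35 entries that met the floor in this way were higher. Summed over all 15, which no floor selects, the group made up 2.88% of reads outside the pair in FK506 serum and 0.751% in untreated serum. In the libraries of days 3 and 7 the sum was 1.04% to 2.72%, so FK506 day 14 was the highest and untreated day 14 the lowest of the 6.

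The endothelial miR-126, encoded in Egfl7, appeared with both arms. miR-126-5p had 2099 reads in FK506 serum and 180 in untreated serum (5.15-fold, 4.42 to 6.02). miR-126-3p had 191 reads in FK506 serum and 28 in untreated serum (3.01-fold, 2.02 to 4.65). The smooth-muscle miRNA miR-143-3p had 6070 reads in FK506 serum and 597 in untreated serum (4.49-fold, 4.12 to 4.89), and its cluster partner miR-145a-5p stood just below the floor with 49 reads in FK506 serum and 9 in untreated serum. The FK506 values were thus above the untreated ones for both arms of miR-126 and for both miRNAs of the miR-143 cluster.

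The miR-199 sequence printed above comes from several loci, and its entries miR-199a-3p and miR-199b-3p carry the same letters and the same counts. They had 447 reads in FK506 serum and 25 in untreated serum (7.89-fold, 5.27 to 12.3), and count as 1 measurement. miR-574-3p, from an intron of Fam114a1, had 550 reads in FK506 serum and 26 in untreated serum (9.33-fold, 6.30 to 14.4). The remaining measured members, miR-221-3p and miR-222-3p, had log2 ratios of 0.28 and 0.22.

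Among epithelial and gut miRNAs, 3 of 6 measured were higher and 0 lower, against 28.1% higher over all entries, with a median log2 ratio of 0.92 against 0.27. By TMM 2 were higher. Of the 6, miR-429-3p, miR-141-3p and miR-203-3p met the floor in FK506 serum alone, and the first 2 of these are among the 3 higher. The intestinal and renal miRNA miR-215-5p, at chr1:185313610-185313630 on the plus strand in an exon of the antisense gene 2010103J01Rik, had 7034 reads in FK506 serum and 818 in untreated serum (3.79-fold, 3.53 to 4.08). Its other arm, miR-215-3p, had 189 reads in FK506 serum and 31 in untreated serum. The miR-200 family, which keeps epithelial cells epithelial by repressing Zeb factors, gave the remaining calls at low depth. miR-429-3p had 54 reads in FK506 serum and 0 in untreated serum, at least 7.94-fold higher against the 3-read limit, and miR-141-3p had 57 reads in FK506 serum and 10 in untreated serum. The islet and gut endocrine miRNA miR-375-3p, the best counted after miR-215-5p, had 2528 reads in FK506 serum and 1303 in untreated serum, a log2 ratio of -0.22.

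Among the 3 highest ratios were 2 members of the miR-378 family, with few reads. miR-378d had 99 reads in FK506 serum and 0 in untreated serum, at least 14.6-fold higher, and had 0 reads in the other 4 libraries too. miR-378c had 110 reads in FK506 serum and 4 in untreated serum (12.1-fold, 4.61 to 45.3). The family's main member, miR-378a-3p, a metabolic miRNA encoded in Ppargc1b, had 2193 reads in FK506 serum and 1310 in untreated serum, a log2 ratio of -0.44. Within the library, miR-378c stood at 0.0502 reads per miR-378a-3p read in FK506 serum and 0.00305 in untreated serum. No source used here tells how the authors assigned reads that match more than 1 of these near-identical entries.

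Smaller groups had few measured entries. The only measured striated-muscle miRNA, miR-133a-3p, had 2138 reads in FK506 serum and 418 in untreated serum, with a log2 ratio of 1.17 by shares and 0.91 by TMM. The defining neuronal miRNAs miR-9-5p and miR-124-3p had 0 reads in both libraries, and of 18 neuron and glia entries only miR-128-3p and miR-204-5p reached the floor. miR-204-5p, of choroid plexus and pigment epithelium, had 93 reads in FK506 serum and 12 in untreated serum. Of the imprinted Dlk1-Dio3 cluster, 4 of 46 entries were measured, 3 of them through FK506 serum alone, and 2 were higher (1 by TMM): miR-127-3p with 398 reads in FK506 serum and 74 in untreated serum, and miR-434-3p with 133 in FK506 serum and 20 in untreated serum.

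The let-7 family, which restrains proliferation by repressing targets such as Lin28 and Ras, made up a smaller share of FK506 serum. Of 8 measured members, 4 were at least 2-fold lower and 0 higher, against 12.5% lower and 28.1% higher over all entries. By TMM 5 were lower, against 14.1% over all entries. The median log2 ratio was -1.27 by shares and -1.53 by TMM. Per library total the median was -0.22. Summed over the family, let-7 made up 6.34% of reads outside the pair in FK506 serum and 17.4% in untreated serum. In the libraries of days 3 and 7 the sum was 8.56% to 19.7%, so FK506 day 14 was the lowest of the 6.

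let-7a-5p had 2031 reads in FK506 serum and 4242 in untreated serum, 4.73-fold lower by share (4.49 to 4.99). let-7i-5p, encoded at chr10:122985698-122985719, had 6119 reads in FK506 serum and 9935 in untreated serum, 3.68-fold lower (3.56 to 3.80). let-7f-5p had 5409 reads in FK506 serum and 7827 in untreated serum, 3.28-fold lower (3.17 to 3.40). let-7d-5p, with 610 reads in FK506 serum and 1006 in untreated serum, was 3.74-fold lower (3.38 to 4.14). All 4 were lower in raw reads too, although the FK506 library held more reads outside the pair. The remaining members did not pass 2-fold by share: let-7b-5p had a log2 ratio of 0.27, let-7g-5p of -0.01, let-7c-5p of -0.34 and miR-98-5p of -0.83.

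Split by these day 14 values, let-7a, let-7d, let-7f and let-7i summed to 3.95% in FK506 serum and 14.5% in untreated serum. At days 3 and 7 their sum was 6.59% and 4.97% in FK506 serum, and 14.3% and 16.0% in untreated serum. The others, let-7b, let-7c, let-7g and miR-98, summed to 2.38% in FK506 serum and 2.82% in untreated serum at day 14. For those 4 the sums at days 3 and 7 were 5.39% and 3.56% in FK506 serum, and 3.53% and 2.39% in untreated serum. The first sum was therefore lower in every FK506 library than in every untreated library, and the second sum overlapped between the groups. Copies of let-7a, let-7f and let-7d lie within 2183 bases of each other at chr13:48536078-48538260 in an exon of the lincRNA 6720427I07Rik. Copies of let-7c and let-7b lie 731 bases end to end at chr15:85706616-85707346 in an exon of Lncppara. A further copy of let-7c lies on chromosome 16 and one of let-7f on chromosome X, so a mature count does not say which locus it came from.

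The liver list held the lowest single entry. miR-122-5p, by far the most abundant miRNA of hepatocytes, had 1 read in FK506 serum and 60 in untreated serum, 136-fold lower with an interval of 23.5 to 5460. Its other arm, miR-122-3p, had 0 reads in FK506 serum and 7 in untreated serum. At days 3 and 7 miR-122-5p had 30 and 26 reads in FK506 serum, and 5 and 0 in untreated serum, so the order of the groups was the other way round on those days. The other measured liver-rich entries, miR-192-5p and miR-148a-3p, had log2 ratios of -0.58 and 0.41. The median of the 3 was -0.58 by shares and 0.49 per library total.

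Apart from let-7 and miR-122-5p, 11 entries were at least 2-fold lower. miR-423-5p, from an intron of Nsrp1 and common in plasma, had 4241 reads in FK506 serum and 6672 in untreated serum, 3.57-fold lower (3.43 to 3.71). miR-320-3p, which is made without Drosha, had 796 reads in FK506 serum and 844 in untreated serum, 2.40-fold lower (2.18 to 2.65). miR-744-5p had 468 reads in FK506 serum and 645 in untreated serum, 3.12-fold lower (2.77 to 3.53). The share of miR-15b-5p, a cell-cycle regulator of the miR-15/16 group, was 3.08-fold lower on 53 reads in FK506 serum and 72 in untreated serum. The others, with fewer reads than miR-744-5p in both libraries, were miR-30c-2-3p, miR-3057-5p, miR-6243, miR-25-5p, miR-144-5p, miR-148a-5p and miR-3107-3p. Per library total only 3 entries stayed at least 2-fold lower: miR-122-5p, miR-30c-2-3p and let-7a-5p.

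Red-cell miRNAs were spread around the middle. Of 7 measured, 1 was higher and 1 lower, against 28.1% higher and 12.5% lower over all entries. The median log2 ratio was 0.10 by shares and -0.16 by TMM, and the list summed to 27.8% in FK506 serum and 27.9% in untreated serum. miR-451a, cut by Argonaute 2 in red-cell precursors, had 4012 reads in FK506 serum and 796 in untreated serum, with a log2 ratio of 1.15 by shares and 0.89 by TMM. Per read of miR-23a-3p, a common gauge of red-cell lysis, miR-451a had 26.4 reads in FK506 serum (22.4 to 31.2) and 14.5 in untreated serum (11.0 to 19.4). At day 3 it had 23.5 in FK506 serum and 21.0 in untreated serum, and at day 7 13.7 in FK506 serum and 43.6 in untreated serum, so the order of the groups was not the same on each day. At day 14 the pair of miR-486-5p and miR-3107-5p had the log2 ratio -1.11 against all other reads. The part of these red-cell measures in the results was not tested.

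**Figure D2:**
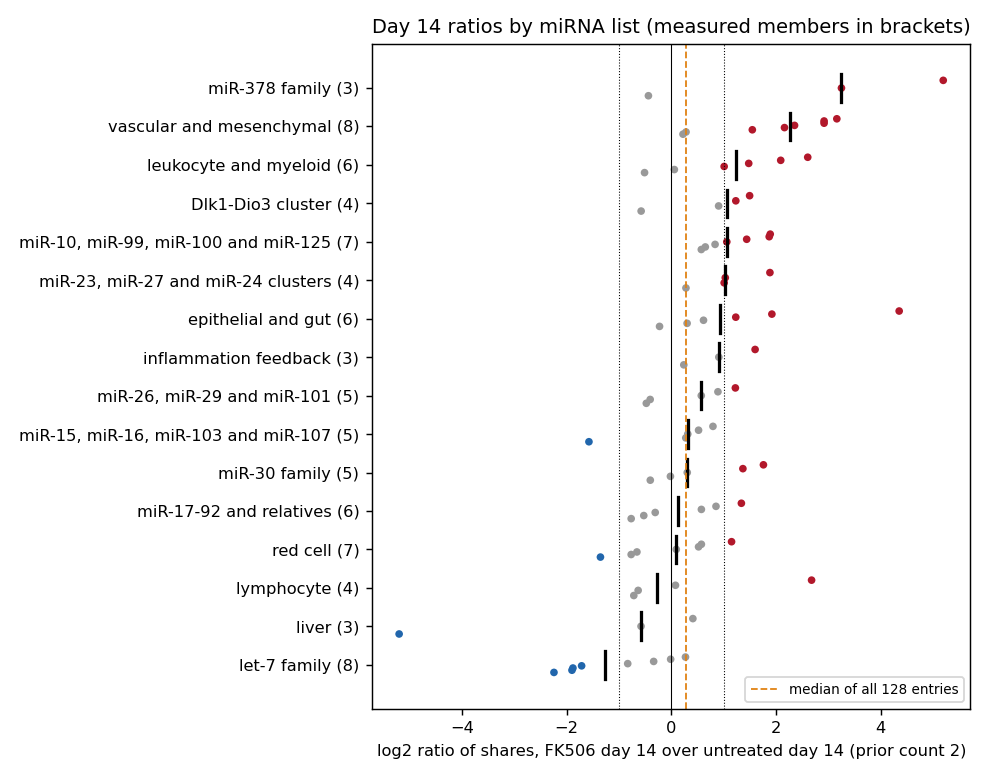
Log2 ratio of shares outside the pair, FK506 over untreated day 14 serum, for each measured miRNA (points) in the lists with at least 3 measured members, with a bar at each list's median and a dashed line at the median of all entries. The vascular and mesenchymal list, in which the identical miR-199 entries are drawn as 2 points, has its median at 2.26 and the let-7 family at -1.27, against 0.27 over all 128 entries.

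The family and cluster lists gave a mixed picture elsewhere, to be read against 28.1% higher, 12.5% lower and a median of 0.27 over all entries. Of the 7 entries of miR-10, miR-99, miR-100 and miR-125, 4 were higher and 0 lower (3 higher by TMM), 3 of the 7 met the floor in FK506 serum alone, and the sum was 18.1% in FK506 serum and 5.34% in untreated serum, most of it miR-10b-5p. That median was 1.06 on the log2 scale. The miR-23, miR-27 and miR-24 clusters had 3 of 4 higher, with a median of 1.02, and 1 higher by TMM. Of those 3, miR-27a-3p and miR-24-3p met the floor in FK506 serum alone. The miR-30 family had 2 of 5 higher, of which miR-30b-5p met the floor in FK506 serum alone, and a median of 0.31. The miR-17-92 group had 1 of 6 higher, miR-19b-3p, which met the floor in FK506 serum alone. Its median was 0.13 by shares and -0.13 by TMM. miR-26, miR-29 and miR-101 had 1 of 5, and miR-15, miR-16, miR-103 and miR-107 had 0 higher and 1 lower of 5.

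Ratios between miRNAs of the same library need no scaling and are set out next. miR-215-5p stood at 0.841 reads per read of miR-192-5p in FK506 serum and 0.148 in untreated serum, 5.66-fold higher in FK506 (5.23 to 6.14). These miRNAs are the same-seed members of a p53-responsive family, and their mature forms differ at the 3 positions given above. At days 3 and 7 the ratio was 1.40 and 0.691 in FK506 serum, and 0.569 and 0.151 in untreated serum. Every FK506 library was above every untreated library for this ratio. The extreme members of the 19 seed families among the 109 entries with a sequence gave 19 such ratios. In 8 of them (42.1%) the FK506 and untreated libraries did not overlap over the 3 days. The extreme members were picked by their day 14 log2 ratios, with the higher member set over the lower. The day 14 order of these ratios was therefore set by the choice, and only days 3 and 7 were free.

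The let-7 ratios were separated in the same way. let-7c-5p stood at 2.94 reads per let-7a-5p read in FK506 serum and 0.783 in untreated serum, 3.75-fold higher (3.50 to 4.01), though the forms differ by 1 base. At days 3 and 7 this ratio was 3.77 and 2.29 in FK506 serum, and 1.08 and 0.256 in untreated serum. let-7g-5p stood at 0.276 reads per let-7i-5p read in FK506 serum and 0.0755 in untreated serum, 3.65-fold higher (3.33 to 4.001). On days 3 and 7 that ratio was 0.298 and 0.264 in FK506 serum, against 0.0761 and 0.116 in untreated serum. In both ratios the 3 FK506 libraries lay above the 3 untreated ones without overlap. Neither ratio is among the 19 of extreme members, so the 42.1% does not cover them. Both were picked after the day 14 values were seen and are given as a description.

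The NF-κB feedback pair was likewise separated. miR-146a-5p stood at 1.11 reads per miR-146b-5p read in FK506 serum and 0.679 in untreated serum, 1.63-fold higher (1.11 to 2.41). At days 3 and 7 this ratio was 1.43 and 1.59 in FK506 serum, and 0.583 and 0.257 in untreated serum. miR-107-3p and miR-103-3p, hosted by the pantothenate kinase genes Pank1, Pank2 and Pank3, differ by G22C (miR-103-3p base first). They gave 0.778 miR-107-3p reads per miR-103-3p read in FK506 serum and 0.557 in untreated serum, 1.40-fold higher (1.23 to 1.59). On days 3 and 7 the values were 0.818 and 0.862 in FK506 serum, and 0.258 and 0.407 in untreated serum. miR-30e-5p stood at 0.187 reads per miR-30a-5p read in FK506 serum and 0.0894 in untreated serum, 2.09-fold higher (1.92 to 2.28). For this last ratio the FK506 libraries of days 3 and 7 gave 0.191 and 0.173, and the untreated ones 0.100 and 0.0872. The miR-30e-5p to miR-30a-5p ratio is also outside the 19 of extreme members and was picked after the day 14 values were seen.

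Among the ratios of extreme members, let-7b-5p over let-7a-5p, miR-181c-5p over miR-181a-5p, miR-30e-5p over miR-30c-5p, miR-26b-5p over miR-26a-5p and miR-27a-3p over miR-27b-3p were separated too. Outside them, miR-378c over miR-378a-3p and let-7c-5p over let-7f-5p, also picked after the day 14 values were seen, were separated as well. For the relatives that follow, the libraries overlapped over the 3 days. miR-25-3p stood at 1.57 reads per miR-92a-3p read in FK506 serum and 0.618 in untreated serum, 2.53-fold higher (2.47 to 2.60). At days 3 and 7 it was 0.442 and 0.565 in FK506 serum, and 0.805 and 0.354 in untreated serum. miR-30e-5p stood at 0.801 reads per miR-30d-5p read in FK506 serum and 0.235 in untreated serum, 3.41-fold higher (3.11 to 3.74), while the other 4 libraries lay between 0.216 and 0.261. miR-10b-5p stood at 4.50 reads per miR-10a-5p read in FK506 serum and 3.30 in untreated serum, 1.37-fold higher (1.29 to 1.44). miR-16-5p, which shares a cluster with miR-15b-5p on chromosome 3, stood at 314 reads per miR-15b-5p read in FK506 serum and 71.1 in untreated serum. A second copy of miR-16 exists beside miR-15a, and the ratio of miR-16-5p to miR-15a-5p was 39.9 in FK506 serum and 33.7 in untreated serum, with an interval for the fold of 0.980 to 1.43.

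Seed families were formed only from the 109 entries with a sequence, which leaves out miR-378a-3p, miR-30b-5p and miR-30d-5p among others. Across the 19 such families with at least 2 compared entries, which hold 52 entries, 0 had members at least 2-fold higher beside members at least 2-fold lower. In 8 of the 19 the log2 ratios of the members spanned more than 1. The let-7 seed family spanned most among families of more than 2 members, with let-7b-5p over let-7a-5p at 0.375 in FK506 serum and 0.0655 in untreated serum, a 5.72-fold difference (4.93 to 6.62).

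**Figure D3:**
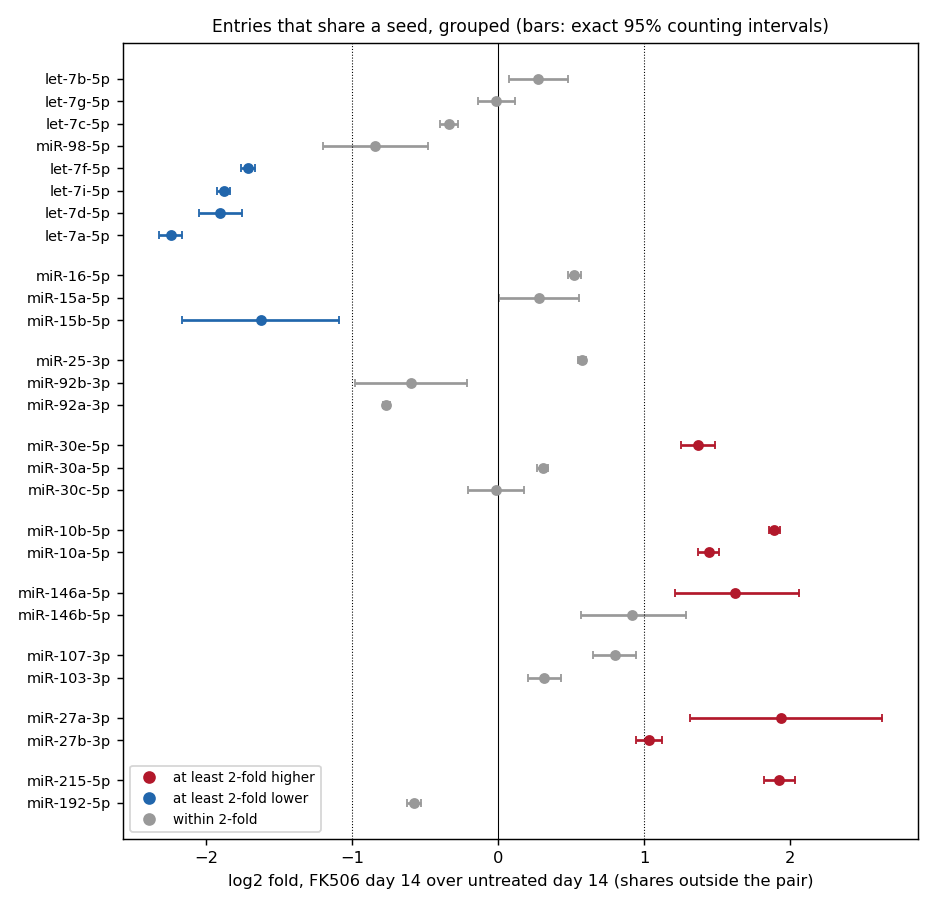
Log2 fold in share, FK506 over untreated day 14 serum, for the entries with a sequence in 9 seed families, 1 entry per row and relatives together, with exact 95% counting intervals. The let-7 block runs from let-7a-5p, 4.73-fold lower in FK506 serum, to let-7b-5p, 1.21-fold higher, and miR-215-5p lies 3.79-fold higher beside miR-192-5p, 1.49-fold lower.

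For 14 pairs of a 5p and a 3p entry, called hairpins here, both arms were compared. The 3p entries miR-30c-2-3p and miR-181a-2-3p are named for 1 locus each, while miR-30c-5p also comes from a copy on chromosome 4. In such pairs the 5p reads need not come from the same hairpin as the 3p reads. Both were higher in 3 (miR-126, miR-142 and miR-215), both stayed within 2-fold in 4, and in 7 only 1 arm passed 2-fold. No hairpin had 1 arm higher and the other lower. The 5p arm of let-7d stood at 0.807 reads per 3p read in FK506 serum and 3.78 in untreated serum, a ratio of 0.213 (0.179 to 0.254). For miR-423 it stood at 4.44 in FK506 serum and 17.2 in untreated serum, a ratio of 0.258 (0.227 to 0.292). These 2 entries were thus lower in their 5p arm, while let-7d-3p and miR-423-3p had log2 ratios of 0.33 and 0.12. The opposite was seen for miR-30e, whose 5p arm stood at 40.8 per 3p read in FK506 serum and 17.4 in untreated serum, a ratio of 2.34 (1.61 to 3.41). The interval excluded equal ratios in 11 of the 14 hairpins.

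**Figure D4:**
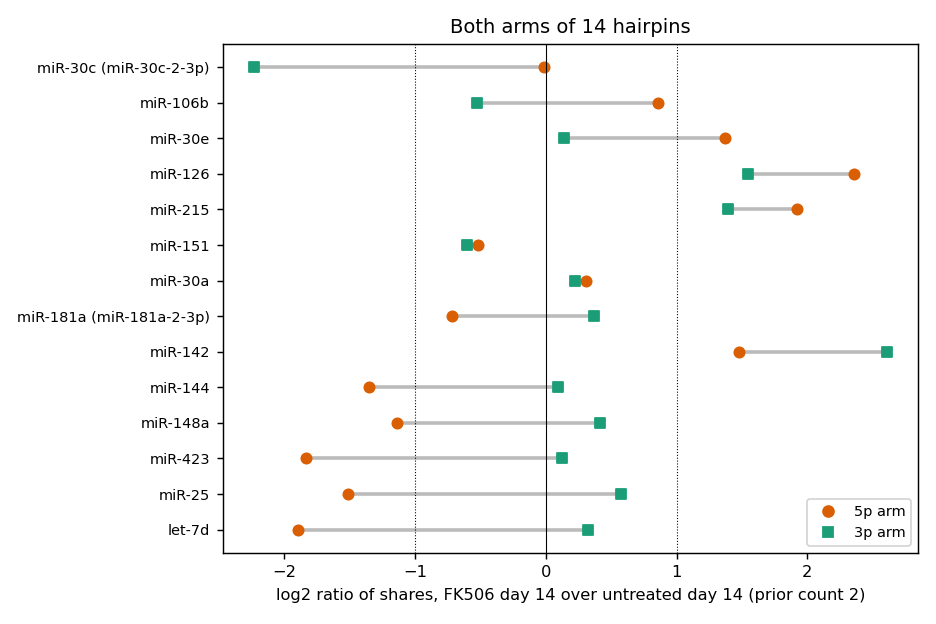
Log2 ratio of shares, FK506 over untreated day 14 serum, of the 5p and the 3p entry in 14 arm pairs. Both arms of miR-126, miR-142 and miR-215 lie above 1, and let-7d and miR-423 have a lower 5p arm beside a 3p arm near 0.

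The same entries were set beside days 3 and 7, each with its own 2 libraries. At day 3, 96 of the 128 entries were measured, with 17 at least 2-fold higher (17.7%) and 11 lower (11.5%). At day 7, 101 were measured, with 43 higher (42.6%) and 21 lower (20.8%). The untreated day 7 library stands apart, with 94740 reads of miR-181a-5p and a neuron and glia list that summed to 4.27% of reads outside the pair, against 0.158% in FK506 and 0.0808% in untreated serum at day 14, so day 7 values rest on it. Of the 36 entries higher at day 14, 20 were measured at day 3, of which 7 were higher and 0 lower. At day 7, 24 of them were measured, with 13 higher and 5 lower. Of the 16 lower at day 14, 12 were measured at day 3, with 0 higher and 5 lower, and 12 at day 7, with 1 higher and 3 lower.

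FK506 day 14 held the highest of the 6 shares for 39 of the 128 entries (30.5%), 23 of them among the 36 higher ones. Untreated day 14 held the highest for 19 (14.8%), 9 of them among the 16 lower ones. In all 3 FK506 libraries the share was above all 3 untreated ones for 23 entries, 15 of them among the 36 higher, and below for 10 (7.81%), 3 of them among the 16 lower. These were let-7a-5p, let-7f-5p and miR-30c-2-3p. Such ranks include the day 14 values and are given as a description. miR-10b-5p had its highest share at FK506 day 14, against 5.49% and 5.03% in FK506 serum and 8.43% and 0.491% in untreated serum at days 3 and 7. miR-423-5p had its lowest there, 1.18% in FK506 day 14 serum and 4.21% in untreated day 14 serum, against 5.24% and 4.52% in FK506 serum and 2.64% and 3.57% in untreated serum at days 3 and 7. let-7i-5p stood at 2.83% and 1.97% in FK506 serum of days 3 and 7, and at 5.84% and 2.78% in untreated serum, with 1.70% in FK506 serum and 6.27% in untreated serum at day 14.

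**Figure D5:**
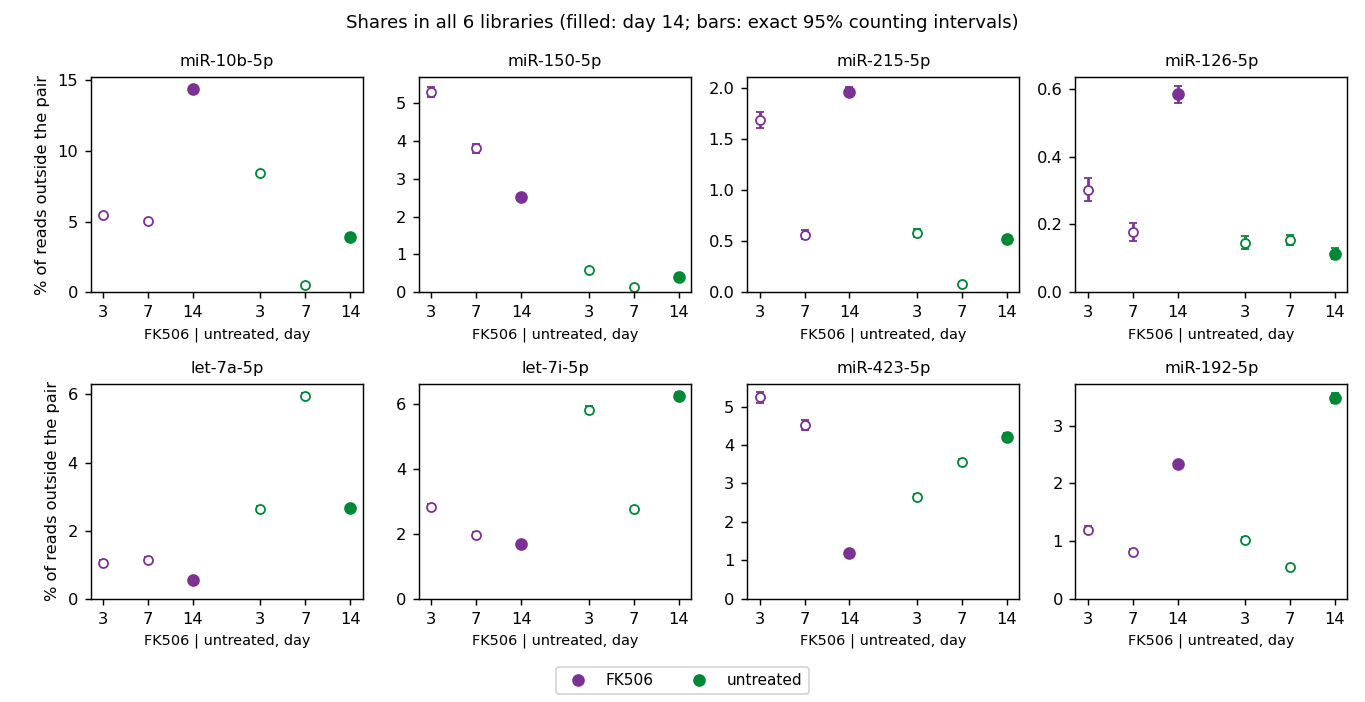
Share of reads outside the pair (percent, linear axes from 0) of 8 miRNAs in the 6 libraries, FK506 days 3, 7 and 14 left of untreated days 3, 7 and 14, with day 14 filled and exact 95% counting intervals. miR-150-5p lies higher in all 3 FK506 libraries than in any untreated library, and miR-10b-5p reaches 14.4% at FK506 day 14, above the 0.491% to 8.43% of the other libraries.

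At the 50-read edge, miR-1964-3p entered with 50 reads in FK506 serum and 17 in untreated serum, and miR-30c-2-3p with 22 in FK506 serum and 50 in untreated serum. Just outside lay miR-145a-5p, with 49 reads in FK506 serum and 9 in untreated serum, and miR-381-3p, with 46 in FK506 serum and 0 in untreated serum.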

How the data were processed

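Small RNA was prepared from serum with size selection, and 11 barcoded libraries shared a lane, per the labels' protocols. Per the submitters' processing notes and labels, reads of 15 to 29 nt were trimmed and matched with Bowtie to miRBase 20.0. No source used here states mismatch limits, tool versions or what was done with reads matching more than 1 entry. The authors deposited raw counts per mature miRNA, 1281 entries in 6 libraries.

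From these counts, shares were taken of reads outside miR-486-5p and miR-3107-5p. Log2 ratios used a prior count of 2, spread over the libraries by size, and folds used the counts as they are. Called entries differ by at least 2-fold (log2 of 1). Entries at 0 were set to 3 reads for their folds, and the lower end of the exact interval is given beside them. TMM factors came from edgeR 4.0.16 on the 153 entries kept by its filter with a minimum count of 10, and median-of-ratios factors from DESeq2 1.42.0, in R 4.3.3. Intervals at 95% were exact binomial or, for ratios of ratios with large counts, Woolf's normal approximation on the log scale. Reads carry no molecular identifiers, so intervals and the 3-read limit cover counting error only.

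Each group has 1 library, so no test was made and no p-value is given. By rule, named miRNAs are the 12 highest and 12 lowest on both scales, the 10 most abundant, all measured members of 18 lists of cell types, families and clusters, and 4 entries at the edge of the read minimum. Other miRNAs, same-seed relatives and second arms among them, were named after their values were seen. The members and lists were chosen with earlier results of these data known. Shares, intervals and calls were tested on simulated data. The 12 alternatives tried were other scalings, minimums and prior counts, and identical entries counted once.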

Additional observations from a re-analysis of the deposited data

Results flagged for a closer look

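For 5 miRNAs that were at least 2-fold higher in FK506 serum at day 14, the day 7 pair of libraries gave a difference of at least 2-fold in the opposite direction. The difference between the days was not tested, since each group has 1 library per day. miR-204-5p had a log2 ratio of -4.93 at day 7, from 21 reads in FK506 serum and 1939 in untreated serum, against 1.68 at day 14. miR-127-3p had -2.70 at day 7, from 136 reads in FK506 serum and 2567 in untreated serum, against 1.23 at day 14. miR-100-5p had -2.37 at day 7, from 14 reads in FK506 serum and 221 in untreated serum, against 1.87 at day 14. miR-27b-3p had -1.81 at day 7, from 821 reads in FK506 serum and 8323 in untreated serum, against 1.03 at day 14. miR-143-3p had -1.44 at day 7, from 842 reads in FK506 serum and 6608 in untreated serum, against 2.16 at day 14. All 5 had their highest reads in the untreated day 7 library, which also holds the most miR-181a-5p reads; the part of that library in these values was not tested.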

How the results depend on the processing

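Of 91 named ratios, 19 that were below 0 by shares were above 0 per library total, and 5 that were above 0 were below it by TMM; 0 of these had passed 2-fold. miR-181a-5p had 0.35, miR-192-5p 0.49, miR-22-3p 0.43, miR-191-5p 0.55 and miR-375-3p 0.84 per library total. List medians that changed sign were lymphocyte (0.77) and liver (0.49) per library total, and red cell (-0.16) and miR-17-92 (-0.13) by TMM. miR-3107-3p, named after its values were seen, had -1.001 by shares and 0.058 per library total. Of the 128 entries, 36 were higher and 16 lower by shares. Per library total the counts were 84 higher and 3 lower. With a minimum of 20 reads 57 were higher, with a minimum of 100 reads 10 were lower, and with no minimum 120 were higher and 55 lower. By TMM, 27 were higher and 18 lower, which became 47 higher with a minimum of 20 reads and 109 higher and 68 lower with no minimum. Each other minimum changes how many entries are compared, so its counts are not out of the 128. A lower minimum lets in more entries with few reads, and the counts cannot be set against each other as shares. A minimum of equal share, which asks 113 reads of FK506 serum for 50 of untreated serum, left 105 entries, 26 higher and 16 lower. With identical entries counted once 35 were higher and 16 lower. Under library totals the median over all entries shifted by 1.06. Other list medians on that scale included 1.96 (inflammation feedback), 1.38 (miR-15, miR-16, miR-103 and miR-107), 2.05 (miR-23, miR-27 and miR-24), 2.12 (miR-10, miR-99, miR-100 and miR-125) and 2.10 (Dlk1-Dio3). The median of miR-15, miR-16, miR-103 and miR-107 was 0.054 by TMM and 0.66 with no minimum. The miR-378 median of 3.25 turned to -0.44 with an equal-share minimum, and to -0.44 when the minimum had to be met in the other 4 libraries, since both leave miR-378a-3p alone. Moved values numbered 44 of 91 named ratios by TMM and 83 by library total. No paired analysis was possible because each group has 1 library at day 14 and no replicate numbers.

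Depth limits the text: the FK506 library has 359061 reads outside the pair and the untreated one 158423, so entries with few untreated reads have wide intervals. Differences between mice cannot be told apart from differences between treatments.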

Other observations

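Arm and base composition were described over the 128 entries as values. Of 64 entries from 5p arms, 14 were at least 2-fold higher and 12 lower in FK506 serum. Of 59 from 3p arms, 19 were higher and 3 lower. These counts are to be read against 28.1% higher and 12.5% lower over all 128 entries. The let-7 family alone gave 4 of the 12 lower 5p entries. A difference between the arms was not tested. The GC content of the mature sequence had a median of 43.2% in the higher entries, 43.2% in the lower entries and 47.6% in those within 2-fold. Across the 109 entries with a sequence, Pearson's r between GC content and the log2 ratio was -0.03 and Spearman's rho -0.09. These points share the same 2 libraries and are not independent, so no p is given.

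Of 3 further miRNAs with known tissue roles, 1 passed 2-fold by shares. The widely expressed miR-26a-5p had 1411 reads in FK506 serum and 867 in untreated serum, a log2 ratio of -0.48. miR-29a-3p, which targets collagens, had 348 reads in FK506 serum and 65 in untreated serum, with a log2 ratio of 1.22 by shares and 0.97 by TMM. The hypoxia-induced miR-210-3p had 86 reads in FK506 serum and 44 in untreated serum, a log2 ratio of -0.21.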
